A study of Mus musculus with 288 samples.

Results

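The metallothionein genes Mt1 and Mt2 and the zinc-sensing transcription factor gene Mtf1 were followed in single mouse embryonic stem cells (mESCs) leaving the naive state. They are 3 of the 54232 genes of the deposited count table and were chosen by name. Their rows were read in the 233 of 288 wells that had more than 200000 reads, more than 2000 genes with a read and a mitochondrial (mt-) share of reads under 0.15. All wells carry the same labels apart from time. The cells are the line E14 of strain 129/Ola, grown on gelatine in N2B27 medium with leukemia inhibitory factor (LIF) and the 2 inhibitors CHIR99021 and PD0325901 (2i), and then moved to serum with LIF (2i release). The label D0 marks 0 h, D1 marks 24 h and D2 marks 48 h after release, with 96 wells each. After sorting, every cell was lysed in a reaction that methylates accessible chromatin before its RNA was separated from its DNA (scNMT-seq), of which the RNA counts are analysed. The labels show 1 plate of 96 wells for each time and name no separate cultures. Cells are therefore not replicates of a time point, plate and time cannot be told apart, and no test between labels was run. SD is the spread between cells.

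Metallothioneins are small, cysteine-rich proteins that bind zinc and copper ions and buffer them in the cytosol. The transcription factor MTF1 senses free zinc through its zinc fingers, enters the nucleus and binds short metal response elements at metallothionein genes and at the zinc exporter gene Slc30a1. Glucocorticoids and oxidative stress also raise metallothionein transcription. Mt1 and Mt2 are expressed in most mouse tissues, and Mt3 and Mt4 are restricted to a few.

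The 4 metallothionein genes lie in 1 cluster on the plus strand of chromosome 8 (build GRCm38, GENCODE annotation). Mt1 spans chr8:94179082-94180327 and Mt2 spans chr8:94172664-94173568, so that Mt2 starts 6418 bases before Mt1. Mt3 lies at chr8:94152607-94154146 and Mt4 at chr8:94137197-94139031. Mtf1 lies apart, at chr4:124802104-124849800. Of the 588 exonic bases of Mt2, 432 (73.5%) are covered by the antisense gene Gm45774, which leaves 156 bases at the 3' end free of it. Whether counting used strand is not given in the sources used here. Without strand, reads of Mt2 and of Gm45774 cannot be told apart, and reads on both may have been dropped. Gm45774 had a mean read count, scaled to a common total (CPM), of 2.05 in D0, 0.904 in D1 and 0.999 in D2. The level of Mt2 is uncertain for this reason, whereas Mt1 and Mtf1 have no such overlap with Gm45774.

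Metal response elements were searched as the core letters TGCACNC or TGCGCNC on both strands, because they are the sequence that ties Mtf1 to the metallothionein genes. In the first 200 bases of the transcript that starts farthest upstream, Mt1 held 4 matches, Mt2 held 3, Mt3 held 3, Slc30a1 held 1, and Mt4 and Mtf1 held 0. Of 21793 genes, 20.97% had at least 1 match in the same stretch, 0.821% had at least 3 and 0.124% had at least 4. In the 250 bases before the RefSeq start there was 1 match for Mt1, 3 for Mt2, 1 for Mt4, 1 for Slc30a1 and 0 for Mt3 and Mtf1, and of 32851 such windows 21.4% had at least 1 and 1.26% at least 3. Transcripts of Mt1 are annotated to start at 94179082, 94179211 and 94179241, so that its 4 matches lie after the first of these starts and before the others. The sites of Mt1 and Mt2 are shown with their flanks, read along the plus strand, with the core in capitals. Cores that begin with TGCA or TGCG lie on the plus strand, and those that end with TGCA lie on the minus strand. The Mt1 sites lie at chr8:94179087-94179101, chr8:94179105-94179119, chr8:94179169-94179183 and chr8:94179183-94179197, in this order, and the Mt2 sites at chr8:94172672-94172686, chr8:94172691-94172705 and chr8:94172725-94172739.
Mt1 site 1: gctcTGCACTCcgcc
Mt1 site 2: aaagTGCGCTCggct
Mt1 site 3: tgctGGGTGCAaacc
Mt1 site 4: ccttTGCGCCCggac
Mt2 site 1: gggcGTGTGCAggcg
Mt2 site 2: gggcGCGTGCAtggt
Mt2 site 3: ctttTGCGCTCgacc
A match is a description of the letters and not a measurement of binding.

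The plates differed in ways that bear on every comparison of labels. Passing cells numbered 90 of 96 wells in D0, 50 in D1 and 93 in D2. Median reads on genes were 1610758.5, 7956161.5 and 2162090 per cell, and the median number of genes with a read was 9002, 10676 and 4744, or 7832.5, 8049 and 3937 after each cell was thinned at random to 200000 reads. The median mt- share was 4.54%, 3.32% and 1.32%. Cells labelled D1 also stood apart from the other labels in Hprt and in Y-linked genes. The source that the study cites for the line describes HPRT-deficient cells, yet Hprt averaged 207 CPM in D1, against 3.08 in D0 and 2.68 in D2. Summed Y-linked genes averaged 269 CPM in D1 against 22.9 and 5.21. A read of Hprt was present in 48 of 50 D1 cells, in 9 of 90 D0 cells and in 7 of 93 D2 cells, and 6 of those in D0 and 6 of those in D2 lay in plate column 12. Cells were taken to go against their label where a D0 or D2 cell had a Y-linked read or a D1 cell had no Hprt read, which held for 3 cells of D0, 2 of D1 and 5 of D2. A broader rule, by a read of Hprt or of a Y-linked gene in D0 and D2 and by the lack of either in D1, marked 11, 3 and 11 cells. Which plates depart from the labelled line cannot be told from these values. Whether D1 holds the same line as the other plates was not tested, and each D1 value stands for the library with that label. The 6 pluripotency markers tested (Pou5f1, Sox2, Nanog, Zfp42, Dppa5a and Tdgf1) each averaged at least 5 CPM in every label, with a median summed level of 4716, 5951 and 9266 CPM. Dppa5a alone averaged 2680, 4483 and 6841 CPM, so this gene weighed heavily in the sum. None of the 6 primitive endoderm markers and none of the 5 fibroblast markers reached 5 CPM in any label. Of the trophectoderm and mesoderm markers, Tfap2c and, in D0, T did. By these lists the cells carried the markers of the labelled cell type, embryonic stem cell, which does not bear on the line.

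Mt1 was among the most abundant transcripts per length in D0 and D1 and less so in D2, and the means of its sister gene Mt2 had the same order of labels. Mt1 ranged from 115 CPM in the lowest to 6945 CPM in the highest of the 90 D0 cells, with a median of 833. In D1 it ranged from 85.2 to 10605 CPM with a median of 956. In D2 it ranged from 0 to 4693 CPM with a median of 276. The ranges of the 3 labels overlapped widely, although 3 D1 cells and 0 D2 cells lay above the highest D0 cell. Reads of Mt1 were present in 90 of 90 D0 cells (100%, exact 95% interval from 96.0%), in 50 of 50 D1 cells (100%, from 92.9%) and in 90 of 93 D2 cells (96.8%, 90.9% to 99.3%). These shares were the same in cells thinned to 200000 reads. Such intervals cover counting error only, and the reads are not independent molecules. Scaled to exon length as well as to total reads, Mt1 reached 786 RPKM in D0, 1322 in D1 and 334 in D2, which was position 32, 33 and 178 among 51848 genes with a known length. The annotated transcripts of Mt1 together cover its whole span of 1246 bases, introns included, so that these values are lower than those of a spliced transcript would be.

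The mean of Mt1 was 979 ± 909 CPM (SD, n = 90 cells) in D0, 1647 ± 2226 (n = 50) in D1 and 416 ± 585 (n = 93) in D2. D1 was 1.68 times D0, a log2 ratio of 0.75 that lay at percentile 80.9 of 10917 genes, whose median ratio was -0.38. This difference rested on the upper cells of D1, since the ratio of the medians was 0.20 on the log2 scale, and it was 0.28 when reads were summed over cells. On columns 1 to 6 of the plates the median was 922 CPM in D0 and 874 in D1. On columns 7 to 12 it was 717 and 1061 CPM. D2 was 2.35 times lower than D0 (log2 ratio -1.23, percentile 25.5 of 10881 genes with a median of -0.19) and 3.96 times lower than D1 (log2 ratio -1.98, percentile 8.25). Every difference of means was smaller than the SD between cells of the higher label. Mt1 was also lower in D2 by the medians (log2 ratio -1.59) and by summed reads (-1.45). D2 cells had fewer genes with a read, and the part of that difference in the lower Mt1 was not tested. Without the cells that went against their label the means were 994, 1711 and 426 CPM, and by the broader rule 1016, 1730.1 and 426. The 2 such D1 cells, in wells B05 and B06, had the lowest Mt1 of that label, at 85.2 and 136 CPM.

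Mt2 had a median of 170 CPM in D0 (lowest 20.98, highest 1717), 155 in D1 (15.3 to 4210) and 68.8 in D2 (0 to 854). Its means were 218 ± 206, 379 ± 717 and 96.0 ± 111 CPM. The log2 ratios of the means were 0.80 for D1 over D0, -1.18 for D2 over D0 and -1.98 for D2 over D1, close to those of Mt1. By medians D2 over D1 was -1.17 for Mt2 and -1.79 for Mt1. The ratio of medians for D1 over D0 had the other sign, -0.13, so that the typical D1 cell did not hold more Mt2 than the typical D0 cell. On columns 1 to 6 of the plates the ratio of means was 1.22 and on columns 7 to 12 it was 0.18. For D2 over D0 the medians (-1.31) and both sides of the plate (-0.95 and -1.52) kept the direction.

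**Figure D1:**
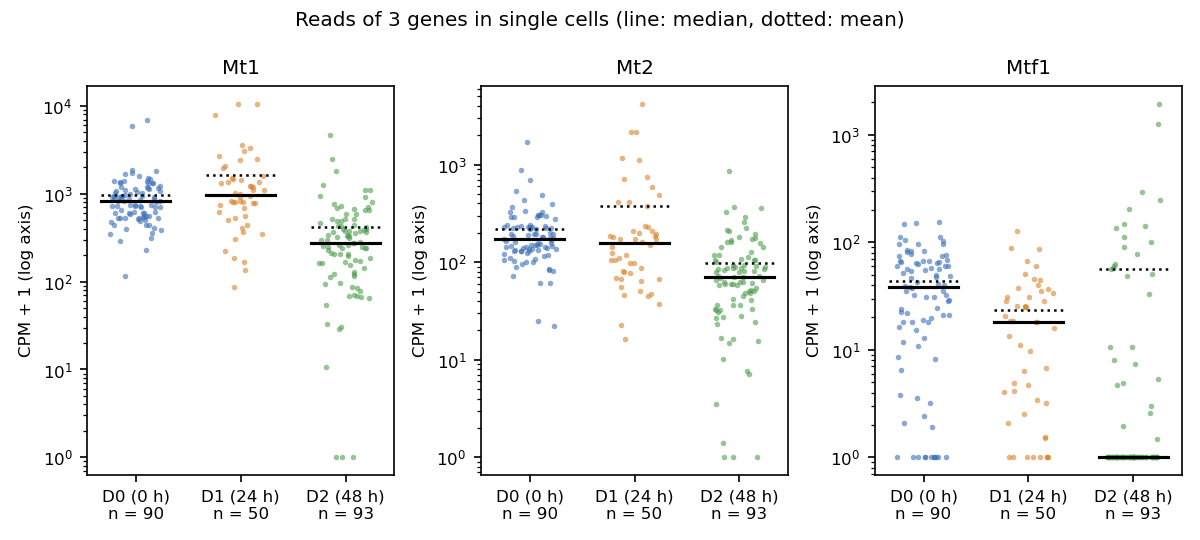
Each point is 1 passing cell, with CPM + 1 on a log axis, for Mt1, Mt2 and Mtf1 under the labels D0 (n = 90), D1 (n = 50) and D2 (n = 93); solid lines are medians and dotted lines means. In D1 the means of Mt1 (1647) and Mt2 (379) lie well above the medians (956 and 155), and in D2 the median of Mtf1 is 0 while its mean is 55.6.

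Mtf1 was far less abundant than Mt1 and Mt2. Its mean was 42.9 ± 37.1 CPM in D0 (lowest 0, median 37.2, highest 155), 22.5 ± 26.5 in D1 (0, 17.3 and 125) and 55.6 ± 243 in D2 (0, 0 and 1948), or 4.82, 2.52 and 6.24 RPKM. A read of Mtf1 was present in 79 of 90 D0 cells (87.8%, 79.2% to 93.7%), 42 of 50 D1 cells (84%, 70.9% to 92.8%) and 30 of 93 D2 cells (32.3%, 22.9% to 42.7%). Thinned to 200000 reads the shares were 78.9%, 70% and 24.7%. Fewer D2 cells thus had an Mtf1 read, yet the mean of D2 was above that of D0, with a log2 ratio of 0.37. Detection was lower in D2 for genes in general, with 3798 genes seen in 50% or more of the cells against 8692 in D0, and the part of this in the Mtf1 share was not tested.

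That mean was set by 2 cells. Well G11 had 1948 CPM (2524 reads) and well H06 had 1269 CPM (2626 reads), followed by 290 CPM in the next cell. The 2 wells held 62.2% of all Mtf1 CPM in D2. Without G11 the D2 mean was 35.04 CPM and the log2 ratio to D0 was -0.29, and without both it was 21.5 CPM and -0.998, so the direction changed with 1 cell. The same 2 cells had 27.8 and 247 CPM of Mt1, both below the D2 median of 276. D1 was lower than D0 by the mean of Mtf1 (log2 ratio -0.93, percentile 33.1 of 10917 genes with a median of -0.38) and by the median (-1.10).

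A few cells carried a large part of the metallothionein reads. In D0 the 9 cells with the most Mt1 (the top 10%) held 27.7% of its summed CPM, in D1 the top 5 held 43.6% and in D2 the top 10 held 41.1%. For Mt2 these shares were 29.8%, 56.9% and 37.0%. The 90th percentile of Mt1 was 1.70 times the median in D0, 3.26 times in D1 and 2.74 times in D2, so that the widening after release was not confined to single extreme cells. Cells above 3 times their label's median numbered 2 of 90, 6 of 50 and 8 of 93 for Mt1, and 4, 9 and 9 for Mt2. Against genes of similar mean level (within 2-fold), the coefficient of variation of Mt1 was larger than that of 92.1% of 241 genes in D0, 98.7% of 155 in D1 and 75.9% of 875 in D2. For Mt2 it was larger than 87.4% of 1815, 99.4% of 831 and 13.3% of 2741 genes.

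**Figure D2:**
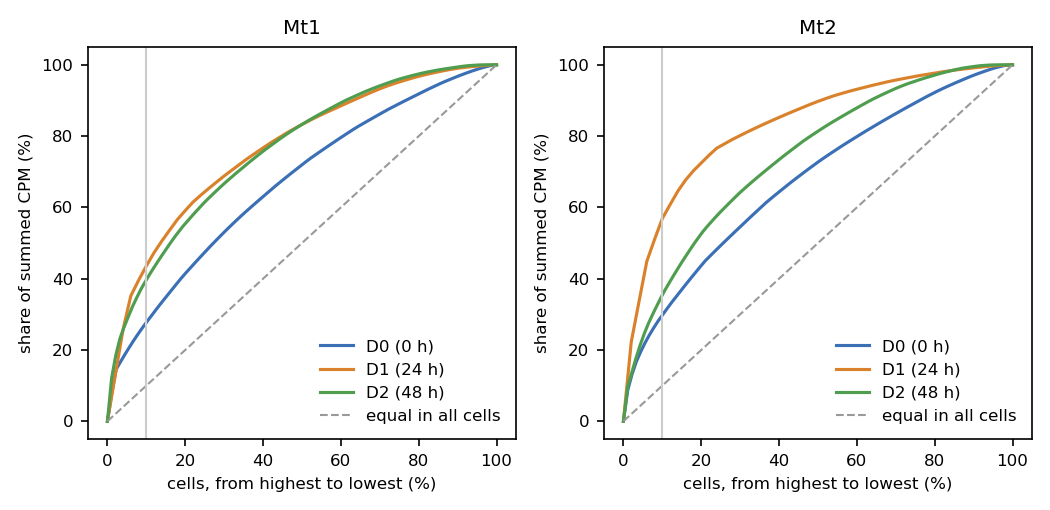
The share of summed CPM (vertical, %) held by cells ordered from the highest to the lowest (horizontal, %) for Mt1 and Mt2, with 1 line per label, a dashed line for equal cells and a grey line at the top 10% of cells. The D1 line for Mt2 climbs fastest, with 56.9% in the top cells, and the D0 lines lie lowest for most of their course.

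In D0 the 2 highest cells stood clear of the others. Well H08 had 6945 CPM of Mt1 and 875 of Mt2, and well B02 had 5838 and 1717, whereas the next cell had 1855 CPM of Mt1. Both had no Mtf1 read and few detected genes, 2342 and 3875 against the label median of 9002. In D1 the 3 highest cells had more detected genes. Well F03 had 10605 CPM of Mt1, 4210 of Mt2 and 10377 detected genes, well G06 had 10532 and 2141 CPM with 7683 genes, and well C10 had 7811 and 1172 CPM with 9844 genes, against a label median of 10676. Further down, well B07 had 3331 CPM of Mt1, no Mtf1 read and 2172 genes, the fewest of the passing D1 cells. In D2 well A04, with 4693 CPM of Mt1 and 854 of Mt2, had 4819 genes and well C08, with 2478 and 213 CPM, had 3269, against a median of 4744.

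Of the 10 cells with the most Mt1 in each label, 10 in D0, 9 in D1 and 10 in D2 lay above their label's median of Mt2. For Mtf1 the counts were 4, 7 and 1, for detected genes 4, 2 and 5, for the mt- share 3, 5 and 5, and for reads 4, 4 and 4. Apart from Mt2, no measure had more than 5 of the 10 above its median in each label. In D0, 9 of the 10 lay in columns 1 to 6, which held 43 of the 90 passing cells. The counts in these columns were nearer to their shares of the plate in D1 (6 of 10, with 24 of 50 passing cells) and in D2 (7 of 10, with 47 of 93). Outer wells held 3, 0 and 2 of the 10, and 34, 5 and 36 of all passing cells. The part of plate position in these counts was not tested.

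Mt1 and Mt2 varied together from cell to cell within every label. Spearman's rho was 0.67 over 90 D0 cells, 0.67 over 50 D1 cells and 0.80 over 93 D2 cells, and Pearson's r of log2(CPM + 1) was 0.75, 0.75 and 0.85. The points share a plate and the division of both genes by the same total of reads. With thinned cells rho was 0.66, 0.70 and 0.73, and as a partial correlation given reads and detected genes 0.70, 0.69 and 0.80. Without the 2 cells farthest from the median Mt1 it was 0.64, 0.63 and 0.79. It was 0.74, 0.72 and 0.87 in columns 1 to 6 and 0.60, 0.67 and 0.65 in columns 7 to 12, and 0.64, 0.65 and 0.78 without the cells that went against their label. Mt2 gave a similar part of the reads of both genes in each label, 20.3%, 19.6% and 19.2% of the pooled reads, while the part in single cells with at least 20 reads of the pair had a median of 16.8% in D0 (lowest 5.56%, highest 41.8%), 15.0% in D1 (2.18% to 46.1%) and 18.6% in D2 (0% to 73.2%). These parts share the uncertainty of the Mt2 level. Over the labels, 40.3% to 51.6% of the Mt2 counts above 0 were even, against 94.6% to 97.4% of those of Mt1. In D2, 89 cells had reads of both genes, 1 of Mt1 alone, 1 of Mt2 alone and 2 of neither.

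**Figure D3:**
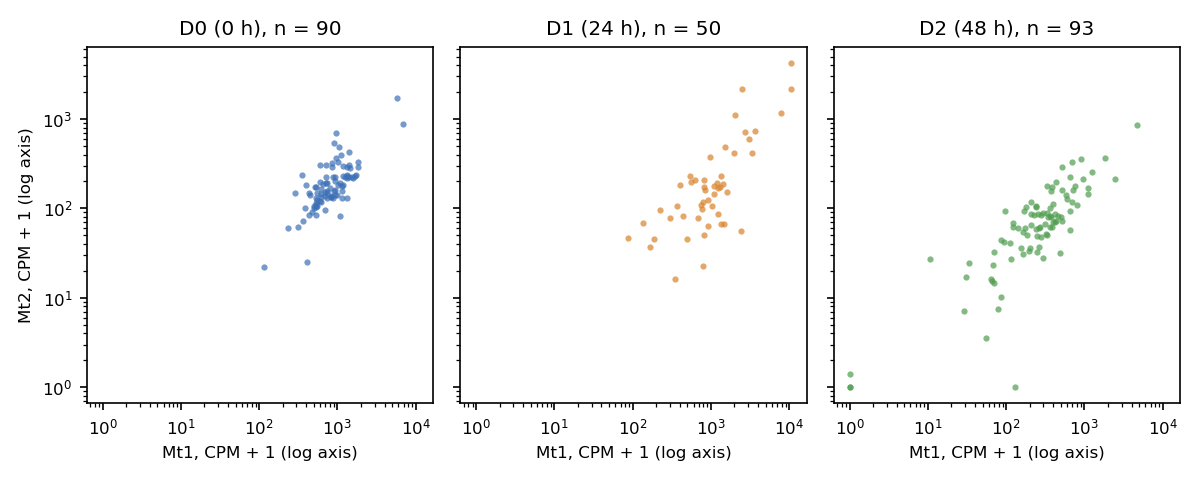
Mt2 against Mt1 in single cells of each label, both as CPM + 1 on log axes, 1 point per cell. Mt2 is higher in most cells with high Mt1 in all panels (rho 0.67, 0.67 and 0.80), with exceptions such as the D1 cell in well C04 (2444 CPM of Mt1 and 54.4 of Mt2), and the D1 and D2 clouds are wider than the D0 cloud.

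Among all genes Mt2 was the closest partner of Mt1. Over the 3643 genes detected in 50% or more of the cells under every label, Mt2 had the highest mean rho with Mt1 (0.71), and it was first of 8692 genes in D0 and first of 3798 in D2 by the same detection limit within a label. In D1 it was 11 of 9810, and there correlations with Mt1 were wide for genes in general, with 5% of genes under -0.47 and 5% above 0.34, against -0.21 and 0.18 in D0. The named genes next to Mt2 by mean rho were Snrpg, a core protein of spliceosomal particles (0.41), Tmem258, a subunit of the oligosaccharyltransferase complex (0.39), Sem1, a small proteasome subunit (0.38), and Atp5j2, a subunit of the mitochondrial ATP synthase (0.38). The 5 lowest were the RNA helicase gene Ddx5 (-0.36), the translation factor gene Eif4b (-0.35), Txnip, which encodes an inhibitor of thioredoxin (-0.35), the rRNA methyltransferase gene Dimt1 (-0.34) and the mitochondrial carrier gene Slc25a36 (-0.34). D1, where rho was widest in general, weighed most in these means, apart from that of Sem1. For D0, D1 and D2 rho was 0.37, 0.71 and 0.16 for Snrpg, 0.38, 0.60 and 0.21 for Tmem258, 0.46, 0.37 and 0.30 for Sem1 and 0.42, 0.56 and 0.15 for Atp5j2. At the low end it was -0.23, -0.57 and -0.28 for Ddx5, -0.26, -0.66 and -0.11 for Eif4b, -0.20, -0.54 and -0.30 for Txnip, -0.33, -0.50 and -0.20 for Dimt1 and -0.32, -0.65 and -0.04 for Slc25a36. Mt2 remained first of 2724 genes when the cells were thinned.

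Mt1 had no comparable relation to Mtf1, which encodes its activator. For D0, D1 and D2 rho was -0.10, 0.12 and -0.09, and Mtf1 stood at position 6633 of 8692 genes in D0 and 1671 of 9810 in D1. In D1 rho was 0.54 over the 24 cells of columns 1 to 6 and -0.30 over the 26 cells of columns 7 to 12, so the value over the whole label joined opposite signs. In D2 the value rests on the 30 cells with an Mtf1 read, since the other 63 are tied at 0. The Spearman coefficient of Mt1 with the number of detected genes was -0.18, -0.22 and -0.13. With thinned cells it was 0.0032, -0.30 and -0.14, as a partial correlation given reads alone -0.14, -0.06 and -0.12, and without the cells that went against their label -0.15, -0.35 and -0.14, so that its size depended on the setting in D0 and D1. In D2 Pearson's r of the log2 values was -0.01, so the size depended on the setting there too. With the mt- share rho was -0.09, -0.07 and -0.06, which joined 0.21, 0.16 and 0.06 on columns 1 to 6 with -0.21, -0.22 and -0.16 on columns 7 to 12. With reads it was -0.15, -0.25 and -0.06, from 0.18, -0.13 and 0.0034 on columns 1 to 6 and -0.29, -0.41 and -0.16 on columns 7 to 12. In D0 the Pearson r with detected genes was -0.43, and the cells in H08 and B02 lie far from the others in that plot. On columns 1 to 6 rho with detected genes was 0.11, 0.02 and 0.04, and on columns 7 to 12 it was -0.25, -0.42 and -0.10.

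**Figure D4:**
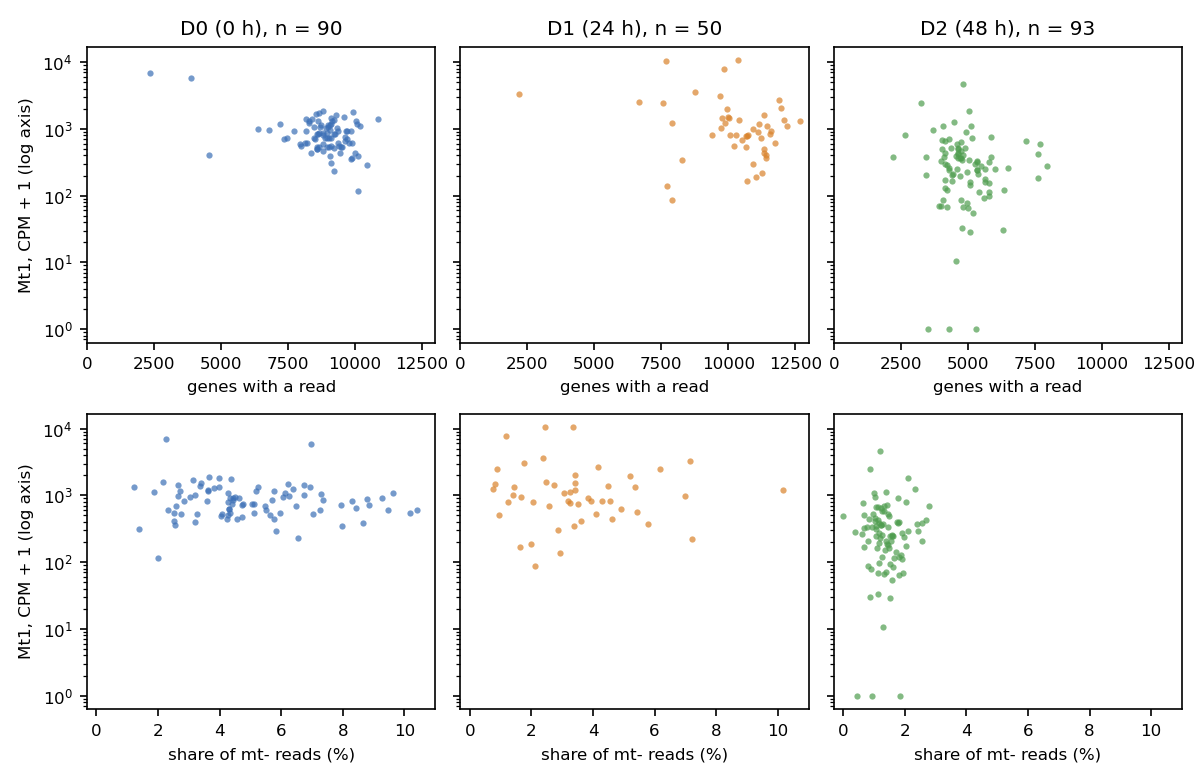
Mt1 as CPM + 1 on a log axis against the number of genes with a read (upper row) and the share of mt- reads in % (lower row), 1 panel per label and 1 point per cell. In D0 the 2 highest cells have 2342 and 3875 genes, to the left of the main cloud, where Pearson's r of the log2 values is -0.43, and rho lies between -0.22 and -0.06 over the panels.

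Other zinc genes are set beside Mt1 and Mt2, whose means were highest in D1 and lowest in D2. The log2 ratios of Mt1 and Mt2 in D1 over D0, 0.75 and 0.80, lie under the limit used next. A gene was counted as higher or lower where the log2 ratio of means was above 1 or below -1, among genes with a mean of at least 5 CPM in either label. Of all such genes 15% were higher and 31.3% lower in D1 over D0, 17.5% higher and 30.1% lower in D2 over D0, and 23.1% higher and 20.8% lower in D2 over D1. Of the Slc30 zinc exporters, which move zinc out of the cytosol, 0 of 7 were higher and 6 lower in D1 over D0 (median log2 ratio -1.69, all genes -0.38), and 0 of 7 were higher and 5 lower in D2 over D0 (median -1.54, all genes -0.19). Slc30a1, the exporter of the plasma membrane and a known MTF1 target, averaged 17.5 CPM in D0, 5.45 in D1 and 0.358 in D2, and 50%, 40% and 5.38% of cells had a read. Slc30a2, an exporter into vesicles, averaged 142, 1.00 and 18.2 CPM. Slc30a6 averaged 59.2, 20.6 and 27.8 CPM, Slc30a7 45.8, 12.7 and 15.7 CPM, and both encode transporters of the secretory pathway. Slc30a9 averaged 52.1, 17.9 and 52.04 CPM. Slc30a10 averaged 5.79 CPM in D0 and 1.65 in D2 and had no read in 50 D1 cells. With 3 cells as the limit that a count of 0 allows, the share of cells with a read is up to 6%, which does not limit the share of cells expressing the gene.

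Of the Slc39 importers, which bring zinc into the cytosol, 1 of 10 was higher and 4 lower in D1 over D0 (median -0.96), and 1 of 10 was higher and 3 lower in D2 over D0 (median -0.24, near that of all genes). In D2 over D1, 5 of 10 were higher and 2 lower, and of 6 exporters 3 were higher and 1 lower. The importer that was higher after release was Slc39a14, which also carries iron and manganese. It averaged 1.67 CPM in D0, 40.9 in D1 and 17.3 in D2, and 8.89%, 94% and 18.3% of cells had a read. Slc39a1, an importer of the plasma membrane, averaged 128, 47.6 and 26.2 CPM, Slc39a11 66.96, 4.33 and 15.6 CPM, and Slc39a3 13.7, 2.62 and 9.77 CPM. Slc39a6 averaged 22.6, 32.2 and 6.39 CPM, in the order of Mt1, and Slc39a7 6.98, 2.72 and 13.5 CPM. The shares of all genes given above are without any added CPM, and none is given for counts with 10 CPM added, here or below. With 10 CPM added to each mean, 4 exporters and 2 importers were lower in D1 over D0 and 3 exporters and 2 importers in D2 over D0. In D2 over D1 the same change left 0 importers higher and 1 lower, and 3 exporters higher and 0 lower, so the higher importers of that comparison depend on the scale.

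Of 6 other genes known as MTF1 targets, 1 was higher and 3 lower in D1 over D0 (median -1.23), 0 were higher and 2 lower in D2 over D0 (median -0.70), and 1 was higher and 2 lower in D2 over D1. With 10 CPM added, 1 was lower in D1 over D0, and 0 were higher and 1 lower in D2 over D1. This list shares Slc30a1 with the exporters and Slc39a10 with the importers. Selenoh, which encodes a nuclear selenoprotein, averaged 253 CPM in D0 and 542 in D1, a log2 ratio of 1.10. Csrp1 averaged 92.3 and 29.2 CPM and the stress-responsive Ndrg1 21.6 and 6.14 CPM in the same labels. Gclc, the catalytic subunit for glutathione synthesis, averaged 33.02 CPM in D0, 24.6 in D1 and 4.63 in D2. Within labels the MTF1 targets detected in 50% or more of the cells had a median rho with Mt1 of -0.07 over 5 genes in D0, -0.07 over 4 in D1 and 0.01 over 2 in D2. The highest was 0.48, for Selenoh in D1. Slc30a1 had a rho of -0.07 with Mt1 over the D0 cells.

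**Figure D5:**
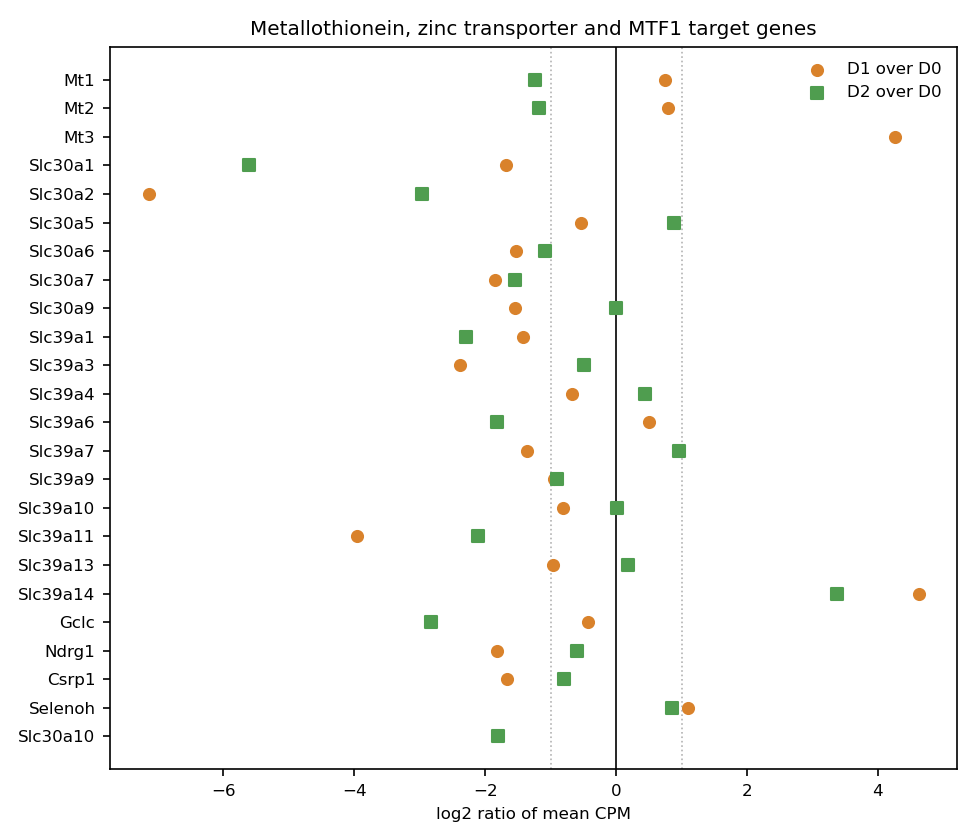
The log2 ratio of mean CPM for D1 over D0 (circles) and D2 over D0 (squares) for metallothionein, zinc transporter and MTF1 target genes with a mean of at least 5 CPM in either label, with dotted lines at -1 and 1. Mt1 and Mt2 lie to the right of 0 in D1 (0.75 and 0.80) and to the left in D2 (-1.23 and -1.18), most exporters lie to the left in both, and Slc39a14 lies far to the right in both.

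Mt3, the metallothionein best known from brain, was low. It averaged 0.304, 5.83 and 2.54 CPM in D0, D1 and D2 and had a read in 7 of 90, 23 of 50 and 39 of 93 cells, and it is the 1 of 3 family members at 5 CPM that was counted as higher in D1 over D0, a call lost with 10 CPM added. Mt4, the member of stratified epithelia, averaged 0.896, 1.38 and 4.18 CPM with a read in 13, 6 and 8 cells. In D2 over D0, 2 of 2 family members were lower, and in D2 over D1 3 of 3, or 2 with 10 CPM added.

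Copper is also bound by metallothioneins. Of 8 copper genes, 1 was higher and 4 lower in D1 over D0 (median -1.26), and 0 were higher and 2 lower in D2 over D0 (median -0.45), or 1 lower with 10 CPM added. The copper importer gene Slc31a1 averaged 129, 34.9 and 20.1 CPM in D0, D1 and D2, and the exporter gene Atp7a 38.6, 7.12 and 17.05 CPM. Atp7b averaged 5.37 CPM in D0 and 0.984 in D1, Cox17, a copper chaperone of mitochondria, 36.5 and 11.8, and the cytosolic copper chaperone gene Atox1 124 and 310.

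Of 7 glucocorticoid-responsive genes 2 were higher and 2 lower in D1 over D0 (median -0.51), and 1 was higher and 1 lower in D2 over D0. With 10 CPM added, 0 were higher and 1 lower in D1 over D0. The glucocorticoid receptor gene Nr3c1 averaged 5.46, 15.3 and 5.37 CPM, the clock gene Per1 8.95, 22.9 and 36.8, the kinase gene Sgk1 543, 122 and 300.2, Tsc22d3 6.43, 0.371 and 6.28 and Klf9 106, 72.9 and 29.6. Of 7 oxidative stress genes 3 were higher and 0 lower in D1 over D0 (median -0.04), or 2 higher with 10 CPM added. In D2 over D0, 1 was higher and 1 lower (median -0.39). Hmox1, the heme-degrading enzyme, averaged 50.2, 266 and 373 CPM, so that it was highest in D2, where Mt1 was lowest. The NRF2 targets Nqo1 and Txnrd1 averaged 74.2, 218 and 39.9 CPM and 194, 393 and 165 CPM, with the highest mean in D1 as for Mt1. Keap1, which encodes the repressor of NRF2, averaged 32.6 CPM in D0 and 10.7 in D2.

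The genes Ftl1 (ferritin light chain), Sod1 (superoxide dismutase) and Prdx6 (peroxiredoxin), which the study names beside Mt1 as stress markers of a cluster of 48 h cells and chose on these data, are given here over whole labels, since that cluster was not rebuilt. They averaged 390.3, 1113 and 95.1 CPM in D0, 1787, 1635 and 1208 in D1, and 613, 211 and 775 in D2. Their rho with Mt1 was 0.31, 0.10 and -0.02 in D0, 0.24, -0.04 and -0.08 in D1, and 0.26, -0.07 and 0.14 in D2. Among the 3643 genes ordered by likeness to Mt1, Ftl1 was at position 114, Prdx6 at 1330 and Sod1 at 1458.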

How the data were processed

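Polyadenylated RNA of single mESCs was sequenced as part of scNMT-seq. The authors aligned the reads and deposited raw counts per gene and well, as whole numbers for all 288 wells, although the descriptions of the samples point to a normalized table. The submitters' processing notes name HISAT2 and GRCm38. The annotation and the counter are not given in the sources used here. Between 78.3% and 84.1% of the counts above 0 were even, so the mates of a pair were probably counted singly, but for Mt2 only 40.3% to 51.6% were even. No table column went unmatched to a sample (0), 0 rows lacked a gene name and no wells were identical (0).

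Cells were kept by the study's limits, with the mt- limit read as a fraction, and the study kept fewer cells than the 233 left here. Counts were divided by the total of the cell to give CPM, and means weight cells equally. Intervals are exact Clopper-Pearson at 95%. With 1 plate per label and no separate cultures named, no test was run. Correlations were computed over cells within a label. Lengths and coordinates come from GENCODE on GRCm38, which may not be the annotation of the authors, and upstream windows from RefSeq.

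The members, the lists and their settings were chosen with earlier results of these data known. Values are given for the members, for list genes at 5 CPM or more with a log2 ratio over D0 beyond 1, and for the 5 genes highest and lowest in mean rho with Mt1, leaving out genes without an established symbol. Single wells and Mt3, Mt4, Gm45774, Hprt, Ftl1, Sod1 and Prdx6 were added beside the result they touch. Leaving out the D2 cells with the most Mtf1, the broader rule for cells against their label, leaving out the failed well with the most Mt1 reads and the search of the first 200 transcript bases were chosen after seeing the data. The alternatives were no filter on cells, summed reads, medians, TMM and median-of-ratios factors, a pseudocount of 10 CPM, totals without abundant genes, thinning, each side of the plate, and leaving out cells. Python 3.11.15 was used, together with scipy 1.17.1, numpy 2.4.6, matplotlib 3.10.9 and pandas 2.3.3, and TMM factors came from edgeR 4.0.16 in R 4.3.3. The ratio and likeness steps were tested on simulated data.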

Additional observations from a re-analysis of the deposited data

Results flagged for a closer look

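Wells that failed the limits on reads, genes or mt- share entered no comparison other than the setting with no filter on cells. They held Mt1 reads above the 3 reads that count as a floor. The 6 such wells of D0 held 152 Mt1 reads of 114562, a pooled level of 1327 CPM, with a read in 3 of them. The 46 of D1 held 1048 of 357724, a pooled level of 2929.6 CPM, with a read in 27. The 3 of D2 held 570 of 1459044, a pooled level of 391 CPM, with a read in 1. In passing cells the pooled levels were 981, 1191 and 359 CPM. The levels of D0 and D2 rest on 1 or 2 wells. Without well C01, which held 82 of the reads, D0 had 818 CPM, and in D2 the reads all came from well C05, which had 1155105 reads and failed by its 1710 genes. Without the D1 well richest in Mt1 reads (B09, 316 reads) D1 had 3138 CPM.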

How the results depend on the processing

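No paired analysis was possible because replicate numbers are absent and every label is a single plate. For D1 over D0, in the order Mt1, Mt2 and Mtf1, the log2 ratio was 1.05, 0.74 and -1.53 with no filter on cells, 0.28, 0.21 and -0.80 with summed reads, 0.20, -0.13 and -1.10 with medians, 0.49, 0.42 and -0.59 with TMM factors, 0.38, 0.32 and -0.69 with median-of-ratios factors, 0.73, 1.22 and -0.52 on columns 1 to 6, 0.77, 0.18 and -1.36 on columns 7 to 12, and 0.68, 0.52 and -1.04 without the cell highest in Mt1. A pseudocount of 10 CPM gave 0.77 for Mt2 and -0.70 for Mtf1, a total without mt- genes, Mt1 and Mt2 gave 0.73 for Mt1, thinning gave 0.82 for Mt2, and leaving out cells against their label gave 0.78 for Mt1 and 0.83 for Mt2, or 0.77 and 0.82 by the broader rule. Leaving out 1 cell at a time gave 0.58 to 0.85, 0.47 to 0.92 and -1.08 to -0.89. For D2 over D0 it was -1.30 and -1.29 for Mt1 and Mt2 with no filter, -1.45, -1.55 and 0.0041 with summed reads, -1.59 and -1.31 with medians (Mtf1 had a median of 0), -1.17, -1.27 and 0.28 with TMM, -1.32 and 0.23 for Mt2 and Mtf1 with median-of-ratios, -1.21, -1.10 and 0.31 with the pseudocount, -1.29 and -1.24 for Mt1 and Mt2 with the reduced total, -1.11, -0.95 and 0.093 on columns 1 to 6, -1.43, -1.52 and 0.59 on columns 7 to 12, and -1.30 and -1.26 for Mt1 and Mt2 without the highest cell. By the broader rule for cells against their label Mt1 was at -1.25. Leaving out 1 cell at a time gave -1.40 to -1.13, -1.31 to -1.07 and, for Mtf1, -0.29 to 0.42, the lowest without well G11. Without the 2 D2 cells highest in Mtf1 it was -0.998. The rho of Mt1 with Mt2 in D2 was 0.65 on columns 7 to 12. The lower Mt1 and Mt2 in D2 kept their sign in each of these settings, and the higher Mt2 in D1 did not. Mt1 was not higher in D1 than in D0 by the medians on columns 1 to 6. The cause was not tested. Mtf1 had no read in 63 of 93 D2 cells, and D2 cells held fewer Mtf1-positive cells than D0 at equal thinned reads too (24.7% against 78.9%), where the median number of detected genes was 3937 against 7832.5.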
